A study of Mus musculus with 6 samples.

Results

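Among 14218 circular RNA (circRNA) probes of an array experiment on benzo[a]pyrene (BaP), 89 (0.626%) were raised in BaP replicates 1 and 2 while BaP replicate 3 stayed at or below the highest of the 3 control arrays. The members were chosen from the authors' log2 values by 3 conditions. BaP replicates 1 and 2 both lay 0.8 or more log2 units above, or both 0.8 or more below, the mean of the controls, and BaP replicate 3 lay within the range of the controls or beyond it on the opposite side. No circRNA met the conditions in the downward direction. The choice used the values of all 6 arrays, so what these values show of the members is a description and carries no test.

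The cells were MOVAS, an established line of mouse aortic smooth muscle cells, grown in medium with fetal bovine serum. The treated group (3 samples) received BaP and the control group (3 samples) received vehicle, with no dose, exposure time or vehicle named in the labels, which mention the macrophage line Raw264.7 as a reference that is not analysed here. Total RNA was digested with RNase R in both groups, labelled with Cy3 by random priming and read on single-colour Arraystar Mouse circRNA Array V2 slides. The labels call the samples biological replicates without naming separate cultures, so every p-value below measures how these samples vary, and that variation may be technical.

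A circRNA forms when the spliceosome joins a downstream splice donor back to an upstream acceptor, which leaves a closed loop without free ends. RNase R is an exonuclease that degrades linear RNA from its 3′ end and spares most closed loops. BaP is a polycyclic aromatic hydrocarbon of smoke and soot that binds the aryl hydrocarbon receptor, a transcription factor that induces the cytochrome P450 enzymes which turn BaP into DNA-binding metabolites, and vascular smooth muscle exposed to it is studied as a model of smoke-related vessel disease. The files used here identify each circRNA by a probe number and do not pair it with a host gene or a sequence, so members are described by level and pattern. As in any bulk RNA measurement, fewer cells of a type and less RNA per cell cannot be told apart.

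The median processed signal of the circRNA probes was 35.9 to 58.3 per array, between 85.5% and 93.9% of them were well above background, and 0 spots were saturated. BaP replicates 1 and 2 were the most similar pair of arrays: over 3532 bright circRNAs the SD of their log2 difference was 0.139, against 0.341 to 0.362 between controls and 0.543 to 0.594 between either of them and BaP replicate 3. From control 2, the SD of the difference was 0.450 for BaP replicate 1 and 0.443 for BaP replicate 2. From controls 1 and 3 it was 0.660 to 0.721 for these BaP arrays. Over 67 probes printed in 10 spots each, the median absolute difference of BaP replicates 1 and 2 was 2.37 times its standard error from the spots, against 5.54 to 7.81 times for pairs of controls. Spot error within an array leaves out the variation between hybridizations, so this ratio does not tell whether the pair are separate samples. The 3 controls and BaP replicate 1 lay on position row 1, and BaP replicates 2 and 3 on position row 2. The identity of the cells could not be checked, because 0 of 8 smooth muscle markers and 0 of 6 macrophage markers were among the mRNA probes, and neither were any of 9 aryl hydrocarbon receptor targets.

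Of all circRNAs, 447 (3.14%) had BaP replicates 1 and 2 both 0.8 or more above the control mean, and 90 (0.633%) had both 0.8 or more below it. The third BaP array parted from them on the upper side. Of the 447, BaP replicate 3 was also 0.8 or more above the control mean and above every control at 254, was above every control by less at 104, and met the conditions for membership at 89 (19.9%). Of the 90 on the lower side, BaP replicate 3 was 0.8 or more below the control mean and below every control at 88, and was below every control with a smaller shift at the other 2. Of the 90, those nearest to the control range had BaP replicate 3 minus the lowest control at -0.18 and -0.21 log2 units. Other circRNAs had BaP replicate 3 at or above the lowest control. The nearest of these to the limit of -0.8 had smaller downward shifts of -0.71 and -0.68.

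**Figure D1:**
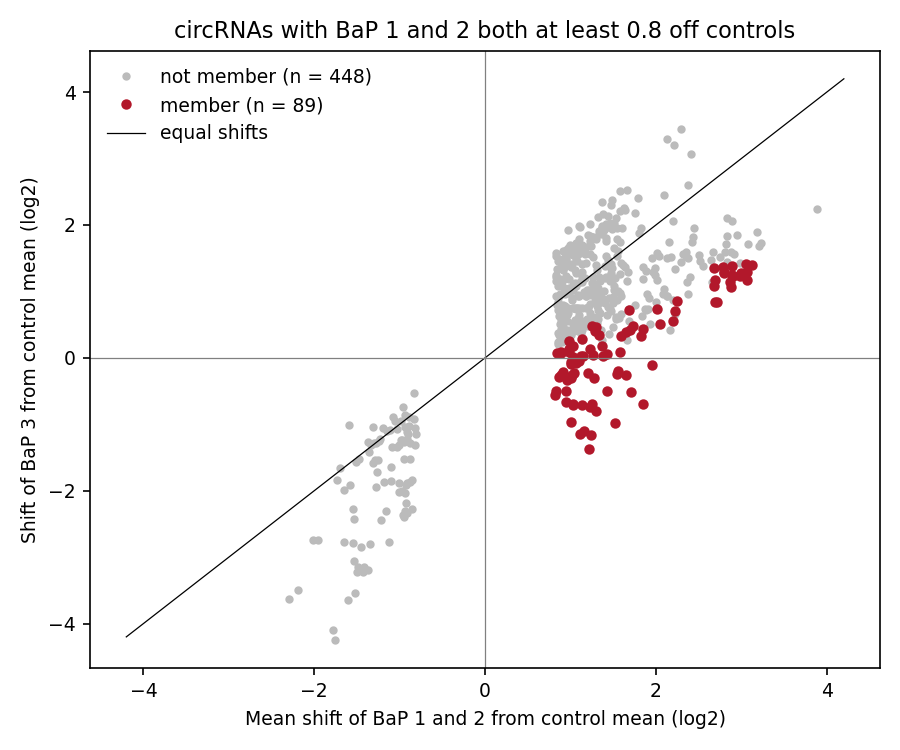
Each point is 1 circRNA whose BaP replicates 1 and 2 both lay at least 0.8 log2 units from the control mean; the horizontal axis is the mean shift of BaP replicates 1 and 2 and the vertical axis the shift of BaP replicate 3, both in log2 units of the authors' values. The 89 members (red) lie to the right, with shifts of BaP replicate 3 from -1.37 to 1.41: 23 of them are below all 3 controls, 20 are 0.8 or more above the control mean and 46 lie between, and no member lies on the left, where BaP replicate 3 is below the control mean at every circRNA drawn.

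The smaller of the shifts of BaP replicates 1 and 2 was 0.804 and 0.808 at the members just inside the 0.8 limit, and 0.751 and 0.747 at the circRNAs just outside it, with 8 members within 0.05 above the limit and 1 other circRNA within 0.05 below. At the edge of the control range, BaP replicate 3 minus the highest control was -0.0024 and -0.012 at the nearest members and 0.0015 and 0.0054 at the nearest circRNAs left out. Within 0.1 of the highest control there were 20 members below and 19 other circRNAs above.

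Over the 89 members, the median shift from the control mean was -0.20 in control 1, 0.10 in control 2 and -0.16 in control 3, then 1.27 (0.81 to 3.31) in BaP replicate 1, 1.37 (0.80 to 2.94) in BaP replicate 2 and 0.07 (-1.37 to 1.41) in BaP replicate 3. Both raised arrays were above every control at 88 of 89 members; the background for this is 19.8% of all circRNAs. The smaller shift was 1 or more at 63 members and 2 or more at 22. BaP replicate 3 lay below the control mean at 37 members and within 0.3 of it at 32. The mean of BaP replicates 1 and 2 exceeded BaP replicate 3 by a median of 1.44 log2 units (0.74 to 2.59). In the processed signal, which sets the same picture in scanner units before scaling between arrays, the members' medians were 102, 126 and 66.7 in controls 1 to 3, 386 in BaP replicate 1, 362 in BaP replicate 2 and 77.1 in BaP replicate 3.

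The name "changed in 2 BaP replicates only" did not describe every member. The members were divided, after their values had been seen, by where BaP replicate 3 lay: at 20 it was itself 0.8 or more above the control mean and inside the control range only because control 2 was as high, at 46 it was within the range with a shift under 0.8, and at 23 it was below all 3 controls.

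**Figure D2:**
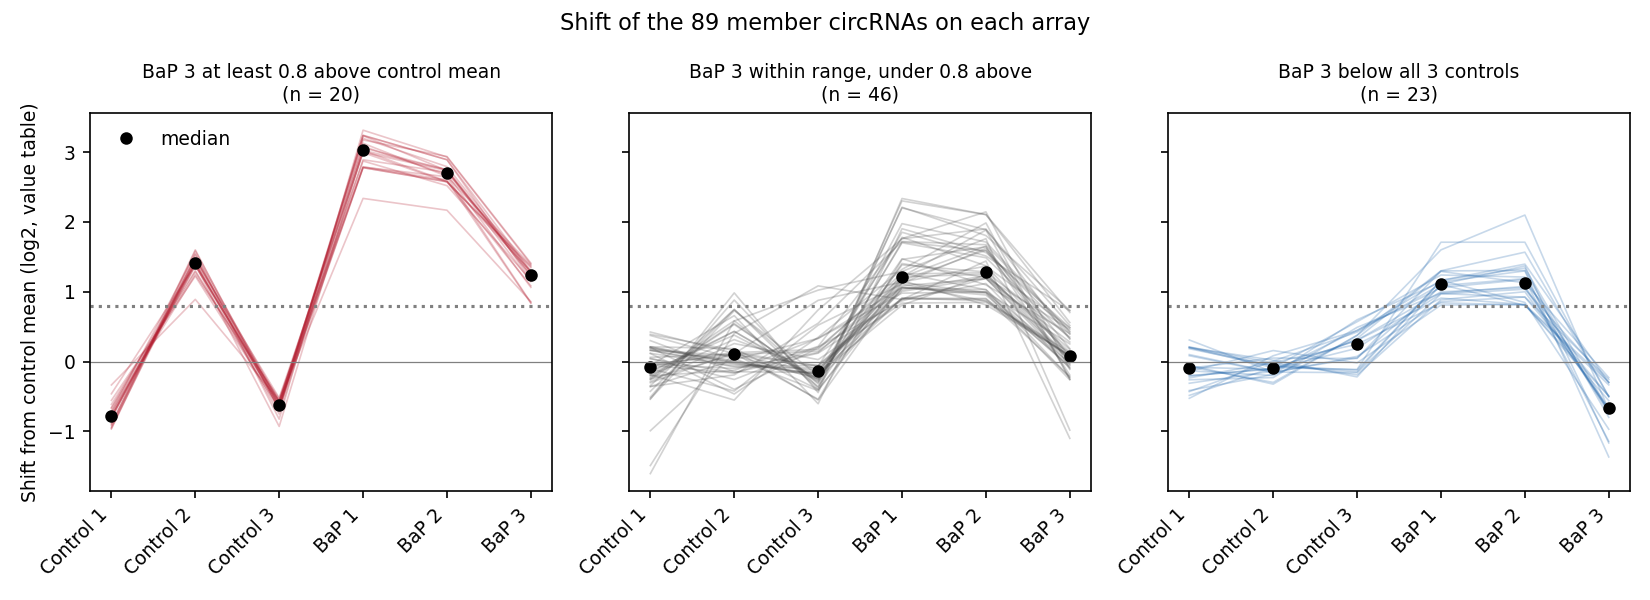
Each line is 1 member circRNA and each black dot the median of its panel; the vertical axis is the shift from the mean of the 3 controls (log2, authors' values), the dotted line marks 0.8, and the panels divide the members by the position of BaP replicate 3. Control 2 and BaP replicate 3 are raised together in the left panel (n = 20), with medians of 1.41 and 1.24, while BaP replicate 3 is the lowest array in the right panel (n = 23), with a median of -0.66.

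The first group of 20 held the strongest members. Its median shifts were -0.78, 1.41 and -0.63 in controls 1 to 3, 3.02 in BaP replicate 1, 2.69 in BaP replicate 2 and 1.24 (0.84 to 1.41) in BaP replicate 3. Control 2 was the highest control at all 20 members, BaP replicate 1 exceeded BaP replicate 2 at all 20, and all 20 spots were well above background on every array. The median processed signal was 209, 935 and 130 in controls 1 to 3, 2938 and 2497 in BaP replicates 1 and 2, and 957 in BaP replicate 3. Control 2 and all 3 BaP replicates thus stood above controls 1 and 3 in these medians, with BaP replicate 3 near the level of control 2.

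The circRNA probe ASCRP4000335 had the largest smaller shift of any member, 2.94. Its log2 values were 7.66, 10.04 and 7.94 in controls 1 to 3 (mean 8.55 ± 1.30, SD, n = 3), 11.72 in BaP replicate 1, 11.48 in BaP replicate 2 and 9.96 in BaP replicate 3. The processed signals were 223, 1099 and 155 in the controls and 3771, 3217 and 1217 in the BaP replicates. BaP replicates 1 and 2 were above all other arrays. In the authors' values BaP replicate 3 lay just below control 2. With 75th percentile scaling BaP replicate 3, at 2.97, exceeded control 2, at 2.69, and so did not meet the conditions.

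Control 2 was 0.8 or more above the control mean at 62 circRNAs of the whole set, and all 62 were among the 447 with BaP replicates 1 and 2 raised. Of these, 22 were members, and at the other 40 BaP replicate 3 exceeded control 2. Control 3 was raised in the same way at 18 circRNAs, of which 3 were among the 447 and all 3 were members, and control 1 at 0. Against the mean of controls 1 and 3, the 22 members stood 2.10 (1.32 to 2.40) higher in control 2, 3.73 (2.74 to 4.08) in BaP replicate 1, 3.36 (2.54 to 3.70) in BaP replicate 2 and 1.95 (1.00 to 2.17) in BaP replicate 3, as medians in log2 units. These 22 were also the 22 members with a smaller shift of 2 or more. Their lowest correlation with their own median profile over the 6 arrays was 0.99. A correlation of 0.95 or more with that profile was found at 33 members and at 174 of all circRNAs, 141 of them among the 447, so the profile was not confined to the 22. These correlations describe values that share 6 arrays and were chosen for this pattern.

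Where BaP replicate 3 stood relative to control 2 at these 22 members depended on the scaling. In the authors' values it was lower by 0.03 to 0.44 (median 0.18), and at the 40 other circRNAs with control 2 raised it was higher by 0.01 to 2.39 (median 0.44). With the processed signal scaled to each array's 75th percentile it exceeded control 2 at 11 of the 22, with median scaling at 18, with quantile normalization at 1 and with normexp background correction at 0. At all 22, BaP replicates 1 and 2 stayed above every control under each of these 4 scalings.

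**Figure D3:**
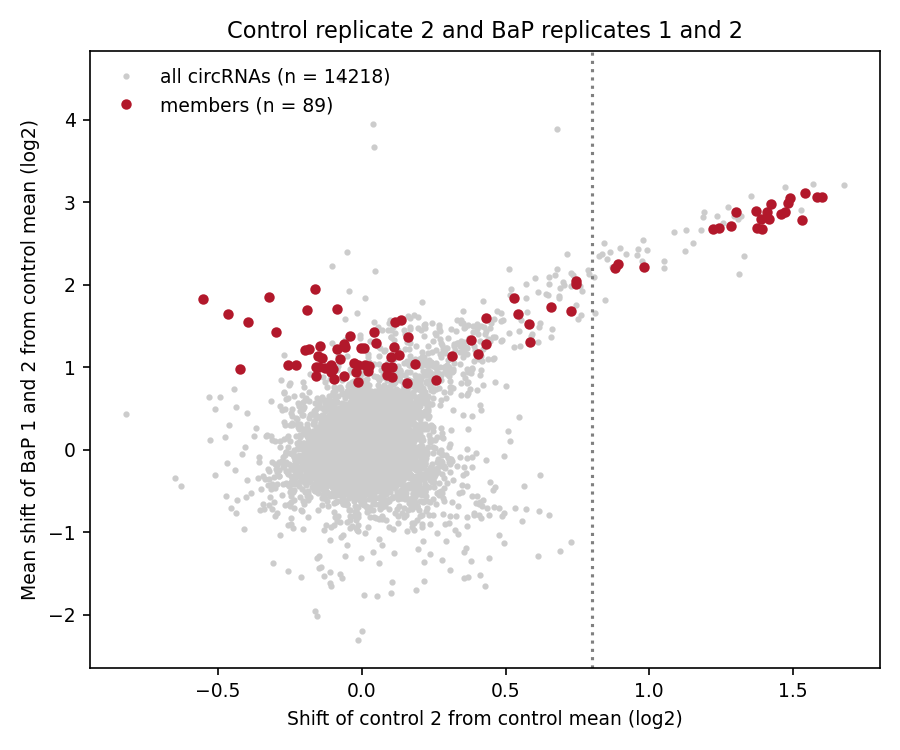
The horizontal axis is the shift of control 2 from the mean of the 3 controls and the vertical axis the mean shift of BaP replicates 1 and 2 (log2, authors' values); grey points are all 14218 circRNAs and red points the 89 members. To the right of the dotted line at 0.8 lie 62 circRNAs, all with BaP replicates 1 and 2 raised, 22 of them members.

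The remaining 67 members showed smaller shifts. Their medians were -0.08 (-1.60 to 0.42), -0.01 (-0.55 to 0.75) and -0.02 (-0.60 to 1.08) in controls 1 to 3, so single members could have controls far apart. The medians were 1.14 (0.81 to 2.21) in BaP replicate 1, 1.21 (0.80 to 2.14) in BaP replicate 2 and -0.08 (-1.37 to 0.73) in BaP replicate 3. The median of the smaller shift was 1.10, and the controls spanned a median of 0.53 from lowest to highest. Where the controls were closest, at 30 members with a span under 0.5, BaP replicate 1 was raised by a median of 1.06 (0.81 to 1.78) and BaP replicate 2 by 1.08 (0.80 to 2.14), while BaP replicate 3 lay at -0.09 (-0.80 to 0.17). The conditions leave no room for overlap between the raised arrays and the other 4 at these members.

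At 23 members BaP replicate 3 was below all 3 controls, with a median shift of -0.66 (-1.37 to -0.23), while BaP replicates 1 and 2 were raised by 1.10 and 1.13. The median processed signals were 144, 157 and 120 in controls 1 to 3, 386 and 376 in BaP replicates 1 and 2, and 64.9 in BaP replicate 3, and all 23 spots were well above background on every array. Control 3 was the highest control at 13 of the 23, control 1 at 8 and control 2 at 2. BaP replicate 3 was below all 3 controls at all 23 with 75th percentile scaling, quantile normalization and normexp, and at 20 of 23 with median scaling.

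The probe ASCRP4003909 had BaP replicate 3 farthest below the controls, by 0.95 log2 units under the lowest. Its log2 values were 7.81, 8.04 and 8.82 in controls 1 to 3 (mean 8.23 ± 0.53, SD, n = 3), 9.37 in BaP replicate 1, 9.52 in BaP replicate 2 and 6.86 in BaP replicate 3. The processed signals were 255, 268 and 285 in the controls, 740 and 818 in BaP replicates 1 and 2, and 90.7 in BaP replicate 3. All 3 controls thus lay above BaP replicate 3 and below BaP replicates 1 and 2. The mean of BaP replicates 1 and 2 exceeded BaP replicate 3 by 2.59.

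The middle group of 46 members was the dimmest. Its median processed signals were 65.5, 63.9 and 36.6 in controls 1 to 3, 189 and 179 in BaP replicates 1 and 2, and 52.7 in BaP replicate 3. Its median shifts were 1.21 and 1.28 in BaP replicates 1 and 2 and 0.09 (-1.10 to 0.73) in BaP replicate 3, and 40 of the 46 were well above background on all 6 arrays.

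The controls lay farther apart at the members than over all circRNAs. The span from the lowest to the highest control had a median of 0.75 log2 units (0.15 to 2.63) at the members, 0.62 at the 254 circRNAs raised in all 3 BaP replicates, and 0.21 over all circRNAs. It exceeded 1 at 32 of the 89 members; the background over all circRNAs is 1.24%. A wide span makes it easier for BaP replicate 3 to fall within it, so this share was partly set by the choice of members. The highest control was control 2 at 39 members, control 3 at 28 and control 1 at 22.

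The members were of middling brightness. Their control mean had a median of 6.81 on the log2 scale, between 6.09 over all circRNAs and 7.33 at the 254 raised in all 3 BaP replicates. All 6 arrays were well above background at 83 members (93.3%), against 82.4% of all circRNAs and 98.0% of the 254. At the members, BaP replicates 1 and 2 differed by a median of 0.20 (at most 0.67), against 0.086 over all circRNAs. The scanner's own error per spot had a median of 0.14 log2 units at the members and 0.149 over all circRNAs, and 0 member spots were outliers. On the slide, the members' spot rows had quartiles of 38, 79 and 137 against 49, 96 and 144 over all circRNA probes.

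The difference between BaP replicates was also present within a position row. BaP replicates 2 and 3 shared row 2, and BaP replicate 2 exceeded BaP replicate 3 at 89 of 89 members, by a median of 1.36 (0.70 to 2.79); the difference was 0.8 or more at 81 members and at 4.17% of all circRNAs, whose median was -0.08. BaP replicate 1 shared row 1 with the controls and stood 1.27 (0.81 to 3.31) above their mean. Both differences entered the choice of members, so they show how the members' values were spread over the slide positions and nothing further.

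In the comparison of all BaP with all control arrays, 0 of the 89 members passed limma's moderated test (processed signal scaled to the 75th percentile, 13151 circRNAs tested, Benjamini-Hochberg adjusted p of 0.05), which called 454 circRNAs (3.45%), 319 of them higher (2.43%). The members' log2 fold changes had a median of 1.19 (0.21 to 2.85), against -0.09 over all circRNAs, and their lowest adjusted p was 0.0769. At an unadjusted p of 0.05 or less there were 36 members and 23.3% of all circRNAs. The study's own thresholds, a fold of 2 or more with an unadjusted p of 0.05 or less, were met by 35 members and by 6.5% of all circRNAs. In limma's fit of the authors' values, 0 members were called among 1097 circRNAs (8.35%), and 53 members had an unadjusted p of 0.05 or less, as did 25.7% of all circRNAs.

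The calls turned on single arrays. Without BaP replicate 3, limma called 60 of the 89 members, all higher, among 1252 circRNAs (9.52%). Without control 2 it called 10 members, among 290 circRNAs (2.21%), and with median scaling 2 members among 732 (5.57%). With BaP replicates 1 and 2 averaged to 1 sample it called 0 members and 0 circRNAs in all (0%), while 21 members and 2544 circRNAs (19.3%) had an unadjusted p of 0.05 or less. ASCRP4000335 had a log2 fold change of 2.73 ± 0.72 (SE; 3 against 3 arrays) with a limma adjusted p of 0.0901, and 3.19 without BaP replicate 3, with an adjusted p of 0.0513. ASCRP4003909 had 0.36 ± 0.83 (SE) with an adjusted p of 0.814, and 1.35 without BaP replicate 3, with an adjusted p of 0.0477. These values rest on the same arrays that chose the members and add no support to the choice.

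The number of circRNAs that met the conditions depended on how the signals were scaled. The same conditions gave 259 higher and 12 lower with 75th percentile scaling of the processed signal, 216 and 26 with median scaling, 230 and 32 with quantile normalization, and 64 and 0 with normexp and quantile normalization. All 89 members had BaP replicates 1 and 2 raised by 0.8 or more with the first 3 scalings, and 62 with normexp. BaP replicate 3 exceeded every control at 15 members with 75th percentile scaling, 28 with median scaling, 2 with quantile normalization and 0 with normexp. The median shift of BaP replicate 3 over the members was -0.12 with 75th percentile scaling and 0.09 with median scaling. Without control 2 the count was 51 higher and 1 lower, of which 47 were among the 89.

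**Figure D4:**
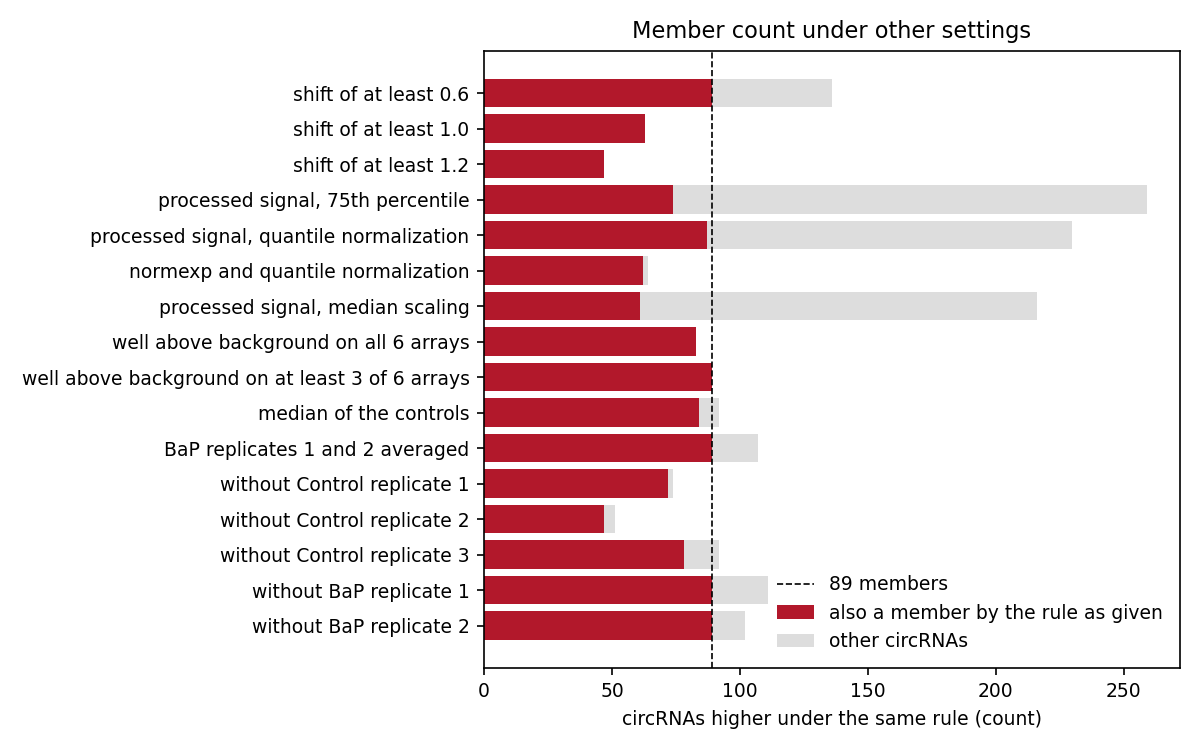
Bars count the circRNAs that met the same conditions in the upward direction under each setting; red marks those among the 89 members, grey marks others, and the dashed line stands at 89. The processed signal gave between 216 and 259 circRNAs, and leaving out control 2 gave 51.

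The array design names 14 probes as circRNA controls, whose targets the sources used here do not state. None met the conditions for membership (background 1.82% of circRNAs in the processed signal scaled to the 75th percentile). With 14 probes and so low a background, nothing is read from that count. At 6 of 14, BaP replicates 1 and 2 were both 0.8 or more below the control mean (background 2.24%). Their mean level per array was 0.60, 0.81 and 0.84 in controls 1 to 3 and 0.19, 0.13 and -1.25 in BaP replicates 1 to 3 (log2, relative to the 75th percentile). The BaP arrays were all below the controls, at -0.31 ± 0.81 against 0.75 ± 0.13 (SD, n = 3 each), a difference of -1.06 with an exact permutation p of 0.1, which is the smallest that 3 against 3 arrays allow. Without BaP replicate 3 the difference was -0.59 (exact permutation p = 0.2). Both remaining BaP arrays were below every control, so this p is the smallest that 3 against 2 arrays allow.

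At the control probes, which took no part in the choice of members, BaP replicate 3 lay apart from the other arrays. It was below all 3 controls at 13 of the 14 (background 41.3%), and the lowest of all 6 arrays at 12, for which no background was computed. The mean of BaP replicates 1 and 2 exceeded BaP replicate 3 at 12 of 14 control probes (background 49.2%), with a median difference of 1.63, and by 0.8 or more at 10 of 14, or 71.4% (background 14.7%). At the members this difference was 1.77, above 0 at all 89 and 0.8 or more at 88 (98.9%), while over all circRNAs its median was -0.01. With median scaling the medians were 1.42 at the control probes, 1.56 at the members and -0.21 over all circRNAs, and with normexp 0.76, 1.21 and -0.05. The choice of members largely fixed this difference at the members, so the likeness to the control probes is a description only. The same choice set BaP replicates 1 and 2 above the controls at the members. At the control probes BaP replicates 1 and 2 were below the controls, with median shifts of -0.44 and -0.67. What part the difference at the control probes has in the members' values was not tested.

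The 50 probes for linear mRNAs differed less. Their mean level was -1.27, -1.22 and -1.23 in controls 1 to 3 and -1.13, -1.04 and -0.98 in BaP replicates 1 to 3, relative to the 75th percentile. The BaP arrays were all above the controls, at -1.05 ± 0.08 against -1.24 ± 0.02 (SD, n = 3 each), by 0.19 with an exact permutation p of 0.1, the smallest possible. The mean of BaP replicates 1 and 2 was above BaP replicate 3 at 15 of 50 probes, with a median difference of -0.13. RNA was digested with RNase R before labelling, and what these probes read after it was not tested. None of 8 genes of a list for serum response and cell cycle and none of 7 for heat shock and unfolded protein was among them, so no value of these arrays bears on culture state through those genes.

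**Figure D5:**
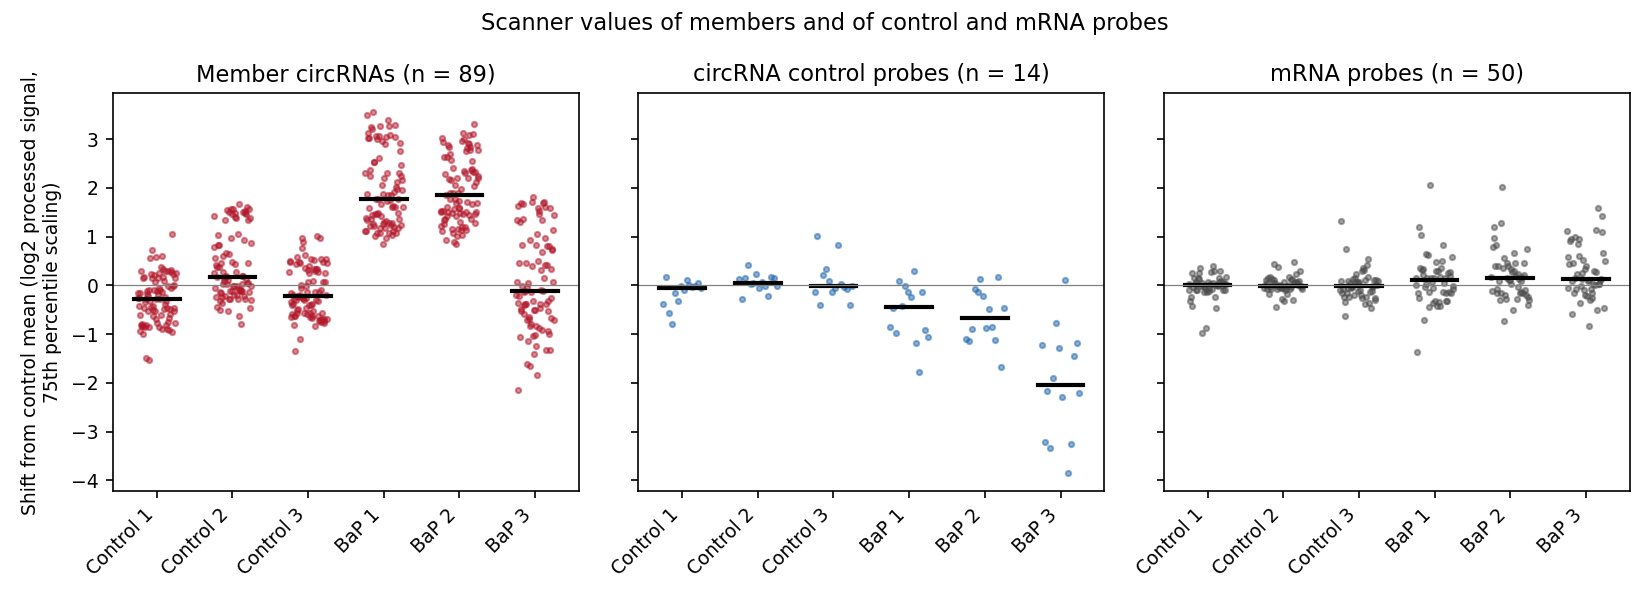
Points are probes and bars the median of each array; the vertical axis is the shift from the mean of the 3 controls (log2 processed signal, 75th percentile scaling), for the 89 members, 14 circRNA control probes and 50 mRNA probes. BaP replicates 1 and 2 have medians of 1.77 and 1.85 at the members and -0.44 and -0.67 at the control probes, and BaP replicate 3 has a median of -2.04 at the control probes and -0.12 at the members.

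Of the 50 mRNA probes, 4 had BaP replicates 1 and 2 both 0.8 or more above the control mean (background 5.87%), 0 had both as far below, and 2 of 50 met the conditions for membership, where the background over circRNAs in the same values is 1.82%. Nothing is read from so small a count. The other 2 of the 4, Olfr1307 and BC057074, are named after their values were seen. One that met the conditions was H2-Q7, which encodes a major histocompatibility complex class I molecule that presents peptides to T cells and natural killer cells. Its processed signals were 192, 241 and 508 in controls 1 to 3, 1399 and 1283 in BaP replicates 1 and 2, and 166 in BaP replicate 3. With 75th percentile scaling its shifts were -0.88, -0.44 and 1.31 in the controls, 2.06 and 2.03 in BaP replicates 1 and 2, and -0.84 in BaP replicate 3, so that BaP replicate 3 lay near control 1. H2-Q7 met the conditions with 75th percentile scaling, median scaling and normexp. Near-identical genes of the same family can bind this probe, so which of them it read is uncertain.

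Over the 6 arrays, 5 members had a correlation of 0.95 or more with the H2-Q7 probe, as did 56 of all circRNAs, and the highest of any member was 0.98. The values share 6 arrays and the choice of members fixed much of this pattern, so the correlations are a description only.

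The other mRNA probe that met the conditions was for Mbp, which encodes myelin basic protein, the main protein of compact myelin beside proteolipid protein. It was dim, with processed signals of 9.46, 10.4 and 3.33 in controls 1 to 3 and 16.5, 14.6 and 9.47 in BaP replicates 1 to 3, and was well above background on 5 of 6 arrays. Its shifts were 0.15, 0.47 and -0.62 in the controls, 1.03 and 0.97 in BaP replicates 1 and 2, and 0.45 in BaP replicate 3. Mbp did not meet the conditions with median scaling or with normexp. With median scaling BaP replicates 1 and 2 were raised by 1.04 and 0.97, but BaP replicate 3, at 0.66, exceeded the highest control, at 0.47. With normexp BaP replicates 1 and 2 were raised by 0.14 and 0.13.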

How the data were processed

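Circular RNA was measured on 6 single-colour arrays, 3 BaP and 3 control, 1 per sample. Per the file headers, spot intensities were extracted with Agilent Feature Extraction 11.0.1.1, and the processed signal is background-subtracted within the array. The authors' deposited log2 table holds 14218 of the 14236 circRNA probes; the sources used here do not give its exact steps, limma is named in the submitters' processing notes, its columns have medians of 6.09 to 6.10, and each ranked the probes like the array's median signal (rank correlation 0.999 to 1.00). The scanner's flags for spots well above background were used to filter probes and to count detected ones.

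The members and gene lists were chosen with earlier results of these data known. Shifts are log2 differences from the mean of the 3 controls. Processed signals were taken to log2 minus each array's 75th percentile over circRNA probes; probes well above background on at least 3 of 6 arrays were tested with limma 3.58.1 in R 4.3.3, after the fit was tested on simulated data. Control and mRNA probes were averaged over 10 spots each where printed so, and their array means compared with exact two-sided permutation tests (scipy 1.17.1). mRNA probes took symbols through RefSeq accessions (44 of 50 matched). The members named were the one with the largest smaller shift and the one whose BaP replicate 3 lay farthest beyond the controls, among members well above background on all arrays, and any mRNA or control probe that met the conditions. Alternatives were the size of the shift, the scaling, the background correction (normexp, offset 50), the filter on dim probes, the position row and the replicate number as blocks, the similar BaP arrays averaged, and each array left out. The number of arrays limits the precision.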

Additional observations from a re-analysis of the deposited data

How the results depend on the processing

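The count of 89 higher members moved to 136 with a shift of 0.6, 47 with 1.2, 259 with the processed signal at 75th percentile scaling, 230 with quantile normalization and 216 with median scaling, and ranged from 51 (without control 2) to 111 with 1 array left out. The count of 0 lower members became 6, 12, 32 and 26 with a shift of 0.6, 75th percentile scaling, quantile normalization and median scaling, 3 around the control median, and 0 to 1 with 1 array left out. limma's 454 calls over all circRNAs became 1097 in the authors' values, 794 with quantile normalization, 1054 with normexp and 732 with median scaling. limma gave 0 calls with BaP replicates 1 and 2 averaged (2544 at an unadjusted p of 0.05), with position row as a block (1440) and within row 1 (2110), where BaP is 1 array assumed to vary like the controls. Leaving out 1 array gave 0 to 1252 calls over all circRNAs: 0 without control 1, control 3, BaP replicate 1 or BaP replicate 2 (2337 to 2668 at an unadjusted p of 0.05), 290 without control 2 and 1252 without BaP replicate 3. Calls among the members, 0 in the stated fit, were 2 with median scaling and 0 to 60 with 1 array left out. The 2 mRNA probes that met the conditions became 1 with median scaling, with normexp and with a shift of 1.0. The cause of these moves was not tested. The differences of the control and mRNA probe means kept their direction under all 9 alternatives each (-1.31 to -0.59, and 0.10 to 0.27).

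With the replicate number as a block, limma made 0 calls over all circRNAs (2281 at an unadjusted p of 0.05) and 0 among the members (42). Same-numbered arrays deviated from their group means with correlations of -0.40, 0.13 and -0.26, and most arrays correlated best with an array of another number. Each group mean rests on 3 arrays, and the deviations within a group sum to zero. These correlations therefore cannot decide whether same-numbered arrays were cultured or handled together, and no conclusion on pairing is drawn from them.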
